A study of Mus musculus with 14 samples.

Results

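Of 21905 genes with a symbol in the joint expression table, 10 that encode proteins of the sperm acrosome or of sperm binding to the egg are described: Acr, Acrbp, Acrv1, Spaca1, Spaca3, Zpbp, Zpbp2, Spam1, Izumo1 and Dpy19l2. They were chosen by name, and each of the 10 had a value in all 5 conditions of that table. RNA had been sequenced from adult C57BL/6 mouse testis along a purification of the chromatoid body, the perinuclear RNA granule of round spermatids. The stages were lysate, the supernatant and pellet1 of the first spin, pellet2 after a second sonication and filtration, and MVH IP, an immunoprecipitation with an antibody against the germ cell helicase MVH. The remaining groups were round spermatids sorted from testis and hetMIWI round spermatids, whose label names a heterozygous state of MIWI, a piRNA-binding protein, and says no more of the genotype. All mice were at least 6 weeks old, and no other allele or agent is named. MVH IP comprised 3 libraries, round spermatids 2 (1 of them from RNA above 500 bp), and each of the other groups 1. The number of animals per library was not given in the sources used here. In the protocol, the immunoprecipitation starts from pellet2, whereas the sample type of the IP libraries names lysate. ACR IP (3 libraries, precipitated with an antibody against acrosin, the product of Acr) and IgG IP (1) were not analysed here, so no value was set against a control precipitation.

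Values are FPKM, reads scaled to transcript length and to the number of mapped reads, with 1 deposited value per gene and condition, pooled over the libraries of a group. No standard deviation, n or test of replicates can be given for any comparison. A gene was called higher or lower where the log2 ratio of (FPKM + 1) reached 2-fold, among genes with a mean of at least 1 FPKM over the 2 conditions compared. In testis samples, fewer cells of a type and less RNA per cell cannot be told apart, and in a fraction a level is a share of the RNA sequenced, not an amount.

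The acrosome is a secretory vesicle that Golgi-derived membranes build over the spermatid nucleus. It holds enzymes and matrix proteins that are exposed when sperm meet the egg, and its membranes carry proteins that bind the zona pellucida or act in fusion with the egg membrane. Transcription of these genes runs mainly in late meiotic and round spermatid stages, and many spermatid messengers are stored before they are translated. The chromatoid body gathers helicases, piRNA machinery and messenger RNA in the same cells.

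The transcript table of MVH IP lists 2 transcripts each for Acrbp and Zpbp2 and 1 for each of the other members. ACRBP binds proacrosin, the inactive precursor of the protease acrosin, and mouse spermatids make a full-length form and a shorter form that ends within an intron. In that table the short form (NM_001127340) had a deposited score of 140.2, against 32.9 for the full-length form (NM_016845), so the short form held 81.0% of the 2 scores together. How reads that fit both forms were divided between them was not tested. For Zpbp2 the scores were 37.6 (NM_001166495) and 7.45 (NM_001166494), and the members with 1 transcript ran from 23.9 for Dpy19l2 to 273 for Spaca1. The unit of the score is not named in the file. For 4405 genes with a single transcript, the separate MVH IP gene table was 2.44 times the score (quartiles 2.00 and 4.33), and for the 4367 of them with a known length this factor had a rank correlation of 0.19 with length, as a description across genes. The row of Acrbp in the separate round spermatid table also covered only 4267 bases, against 13339 bases in the joint table. In the GRCm38 annotation, the short form ends 4268 bases from the RefSeq start of the gene. The 2 forms are shown where they part, since the 2 scores belong to them. Both share the end of exon 5, in lower case (chr6:125053923-125053952, plus strand, GRCm38). The short form then reads into intron 5 up to a stop codon (to base 125053968), while the full-length form joins exon 6 (chr6:125054673-125054702). The capitals mark what each form has of its own, all of it coding sequence, with the stop codon at the end of the short form.
Acrbp short form: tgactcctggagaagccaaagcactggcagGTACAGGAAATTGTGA
Acrbp long form: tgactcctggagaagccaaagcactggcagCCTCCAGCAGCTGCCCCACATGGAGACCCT

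All 10 genes were expressed far above the typical gene in every condition. As the median over all genes, lysate had 1.83 FPKM, supernatant 1.80, pellet1 1.85, pellet2 1.93 and MVH IP 3.96. The lowest placed of the 50 member values, Spaca3 in supernatant, still exceeded 84.6% of genes, and the highest placed, Acrv1 in MVH IP, exceeded 99.2%. In lysate the order from the top was Acrbp, Acrv1, Spaca1, Acr, Zpbp2, Dpy19l2, Zpbp, Izumo1, Spam1 and Spaca3. Izumo1 at 44.2 FPKM and Spam1 at 44.1 were neighbours in it, and the values carry no spread by which to separate any neighbours. In MVH IP the order was Acrv1, Spaca1, Acrbp, Acr, Spam1, Izumo1, Zpbp2, Spaca3, Dpy19l2 and Zpbp. Spam1 thus held place 5 in MVH IP against place 9 in lysate, and Dpy19l2 place 9 against place 6. Summed over the 10 genes, lysate had 1268 FPKM, supernatant 1246, pellet1 1443, pellet2 1318 and MVH IP 2547.

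**Figure D1:**
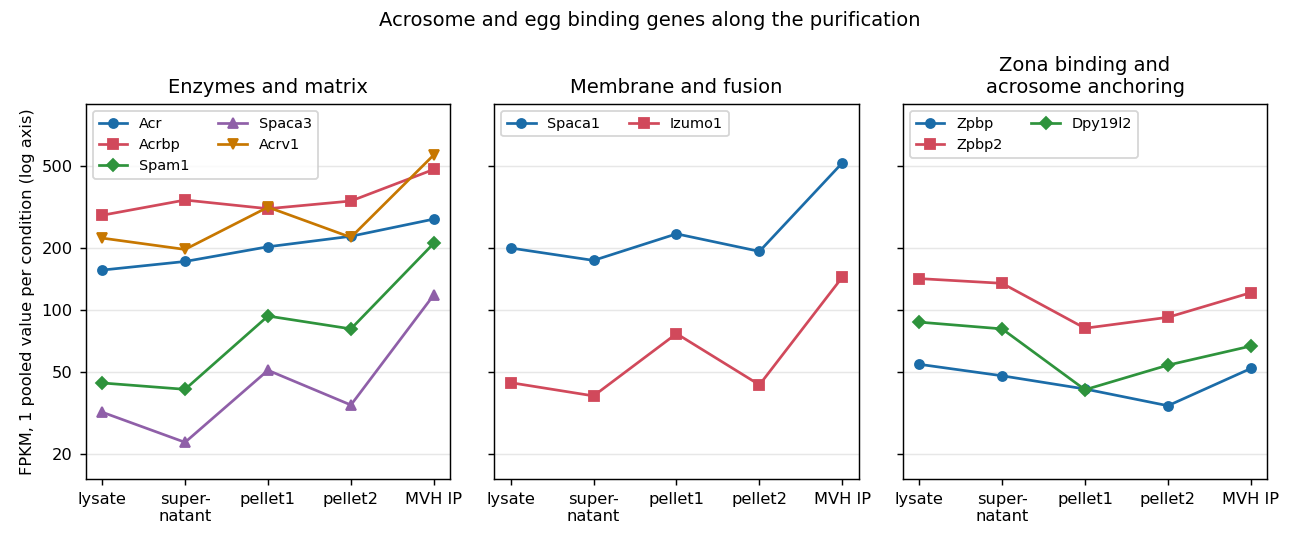
FPKM (log axis) of each gene in lysate, supernatant, pellet1, pellet2 and MVH IP, 1 pooled value per point, in 3 panels by role. All genes of the first 2 panels are highest in MVH IP, while Zpbp, Zpbp2 and Dpy19l2 end below or close to their lysate level.

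Among the enzymes and matrix proteins, Acr encodes acrosin, the serine protease of the acrosome (mm9 chr15:89398757-89405015). Acr levels were 156 FPKM for lysate, 171 for supernatant, 202 for pellet1, 227 for pellet2 and 275 for MVH IP. Its level rose from lysate to pellet1, pellet2 and MVH IP in turn, as only that of Acrbp did among the other members. The total range of Acr was 1.77-fold. Acrbp (chr6:124999945-125013283) levels were 287 FPKM for lysate, 341 for supernatant, 309 for pellet1, 337 for pellet2 and 479.7 for MVH IP. It covered a range of 1.67-fold and was the highest member in lysate, supernatant and pellet2. Spam1 encodes the hyaluronidase PH-20, which helps sperm through the hyaluronan-rich cumulus around the egg (chr6:24741199-24751048). Spam1 levels were 44.1 FPKM for lysate, 41.0 for supernatant, 93.1 for pellet1, 80.7 for pellet2 and 210.1 for MVH IP. Both pellets were above lysate and supernatant, and MVH IP was above the pellets. Spaca3 encodes a lysozyme-like acrosomal protein without a known bacteriolytic role (chr11:80671891-80681316). Spaca3 levels were 31.8 FPKM for lysate, 22.7 for supernatant, 50.8 for pellet1, 34.5 for pellet2 and 118 for MVH IP, the widest range of the 10 genes at 5.20-fold. Acrv1 encodes SP-10, a protein of the acrosomal matrix and membrane (chr9:36500805-36506422). Acrv1 levels were 223 FPKM for lysate, 196 for supernatant, 314 for pellet1, 224 for pellet2 and 564 for MVH IP, where it was the highest member.

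Spaca1 and Izumo1 encode membrane proteins of the acrosome and of fusion. Spaca1 is a membrane protein needed for the shape of the acrosome and of the sperm head (chr4:34115289-34137042). Spaca1 levels were 199 FPKM for lysate, 173 for supernatant, 233 for pellet1, 192 for pellet2 and 516 for MVH IP. Izumo1 is the sperm membrane protein that binds JUNO on the egg and is required for fusion (chr7:52877181-52882612). Izumo1 levels were 44.2 FPKM for lysate, 38.1 for supernatant, 76.5 for pellet1, 43.2 for pellet2 and 144 for MVH IP. In both genes the supernatant was lowest, pellet1 exceeded pellet2, and MVH IP was highest.

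The other 3 genes were lower in MVH IP than in lysate, though higher than in pellet2. Zpbp encodes a zona pellucida binding protein of the acrosomal matrix (chr11:11180043-11362422). Zpbp levels were 54.3 FPKM for lysate, 47.8 for supernatant, 41.2 for pellet1, 34.2 for pellet2 and 51.8 for MVH IP, so lysate was highest and pellet2 lowest. Zpbp2, its relative with a role in acrosome and head shape (chr11:98412411-98419979), had levels of 142 FPKM for lysate, 134 for supernatant, 81.3 for pellet1, 91.8 for pellet2 and 121 for MVH IP. In the authors' deposited table the Zpbp2 comparisons with MVH IP have the status FAIL, so this MVH IP level comes with no test of theirs. Dpy19l2 encodes a protein of the inner nuclear membrane that holds the acrosome to the nucleus (chr9:24361492-24500737). Dpy19l2 levels were 87.0 FPKM for lysate, 80.7 for supernatant, 40.9 for pellet1, 53.8 for pellet2 and 66.6 for MVH IP. The deposited table gives Dpy19l2 coordinates that overlap those of Cypt4 and Cypt9, and no other of the 10 genes overlaps a listed feature. Cypt9 stood at 1484 FPKM in MVH IP against 395 in lysate, and Cypt4 at 14.2 and 9.54. How reads were divided among the 3 was not tested, and the strand handling of the counting was not given in the sources used here.

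Setting MVH IP against lysate shows which messengers take a larger share of the RNA in the precipitated material. Without a control precipitation it cannot show which of them are held in the chromatoid body. Of the 10 members, 5 were higher by 2-fold or more in MVH IP and 0 were lower, where 47.3% of the 13855 genes tested stood higher and 7.53% lower. The share of 5 in 10 was therefore near that of genes at large. The median log2 ratio of the 10 genes was 1.08, beside 0.92 for all genes, and 5 members lay above that of all genes. With a floor of 30 FPKM on the mean, which every member passes, 46.3% of 3885 genes were higher, 5.66% lower, and their median was 0.88. In the separately scaled gene tables of MVH IP and lysate, 7 of the 8 members listed in both were higher and 0 lower, where 78.9% of 3806 genes stood higher and 0.473% lower. Acr was among them (log2 ratio 1.74), and Zpbp (0.83) and Zpbp2 (1.40) were above 0 there, unlike in the joint table. The median of the shared genes was 2.03, however. Relative to it Acr was at -0.29, Zpbp at -1.20 and Zpbp2 at -0.63, below the gene median as in the joint table.

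The spread among the members was wider than these medians show. Spam1 was at 210.1 FPKM in MVH IP against 44.1 in lysate, a log2 ratio of 2.23, above that of 87.9% of genes. Spaca3 followed at 1.86, Izumo1 at 1.68, Spaca1 at 1.37 and Acrv1 at 1.34. Acr at 0.82 and Acrbp at 0.74 lay just below the median of all genes. Zpbp at -0.07, Zpbp2 at -0.23 and Dpy19l2 at -0.38 were lower in MVH IP than in lysate, and Dpy19l2 exceeded only 14.6% of genes. Relative to the median of all genes, Spam1 stayed higher by 2-fold (1.31), the other four called genes did not, and Zpbp2 (-1.14) and Dpy19l2 (-1.30) were lower by 2-fold. On that centred scale 18.7% of all genes were higher and 20.6% lower. Within the authors' deposited table, Spam1 was the only member with a q-value under 0.05 for MVH IP against lysate (q = 0.00865), where 7.05% of the 10430 genes they could test were higher at that threshold. The other q-values for this pair in the authors' deposited table began at 0.155 for Izumo1 and 0.182 for Spaca1. With pooled values, these q-values have no replicate behind them that the files show.

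**Figure D2:**
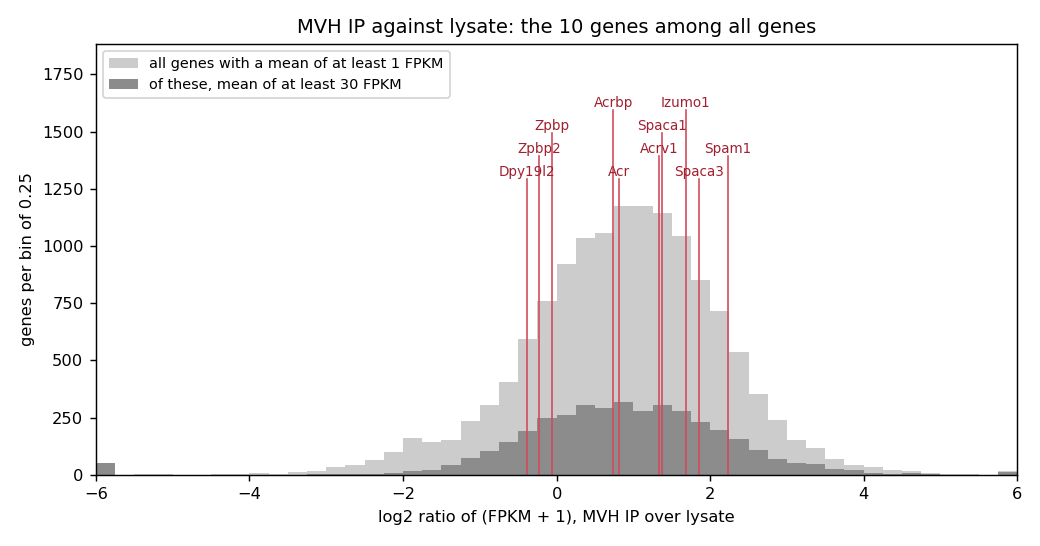
Number of genes per bin of 0.25 in the log2 ratio of (FPKM + 1), MVH IP over lysate, for all genes tested (light) and those with a mean of at least 30 FPKM (dark), with the end bins holding ratios past the axis and red lines at the 10 genes. The members run from -0.38 for Dpy19l2 to 2.23 for Spam1, on both sides of the median of 0.92.

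Set against pellet2 and against supernatant, MVH IP gave the same 5 members as higher. These comparisons share the MVH IP value, so they are not independent of the one above. Against pellet2, the material the protocol says was precipitated, Spaca3 had a log2 ratio of 1.75, Izumo1 1.71, Spaca1 1.42, Spam1 1.37 and Acrv1 1.33, while 39.9% of all genes were higher and 5.78% lower. All 10 members were above 0 in that comparison, with Acr the least at 0.28, and none kept a 2-fold difference relative to the gene median of 0.79, where 14.2% of genes were higher and 13.7% were lower. Against supernatant, Spam1 and Spaca3 both reached 2.33, Izumo1 1.89, Spaca1 1.57 and Acrv1 1.52, beside 48% of genes higher and 7.48% lower. Within the authors' deposited table Spam1 again had the only member q-value under 0.05 for MVH IP against supernatant (q = 0.00361, where 9.16% of genes passed as higher), followed by Izumo1 at 0.0747 and Spaca1 at 0.0942. Of the 100 member tests in the authors' deposited table, 96 have the status OK and 2 have a q-value under 0.05, both of them for Spam1.

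The members' ratios of the earlier fractions to lysate spanned a narrower range than those of MVH IP. In pellet1 against lysate, Spam1 was higher (93.1 and 44.1 FPKM, log2 ratio 1.06, or 0.99 relative to the gene median) and Dpy19l2 lower (40.9 and 87.0 FPKM, -1.07), where 16.8% of genes stood higher and 9.41% lower. Izumo1 at 0.78 and Spaca3 at 0.66 stayed under 2-fold, as did Zpbp2 at -0.79 and Zpbp at -0.39. In pellet2 against lysate no member reached 2-fold in either direction, while 12.5% of genes stood higher and 7.21% lower. The extremes were Spam1 at 0.86 and Dpy19l2 at -0.68. In supernatant against lysate no member reached 2-fold, with Spaca3 lowest at -0.47 and Acrbp highest at 0.24, and 0.751% of genes stood higher and 1.46% lower. In pellet2 against pellet1, Izumo1 was the lowest at -0.81 and Dpy19l2 the highest at 0.39, no member reached 2-fold, and 5.94% of genes stood higher and 6.67% lower. These comparisons share lysate or pellet values with each other.

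The pellet and the supernatant of the first spin, a comparison added after the values were seen, again had Spam1 at the upper and Dpy19l2 at the lower end. Spam1 was at 93.1 FPKM in pellet1 against 41.0 in supernatant, a log2 ratio of 1.16, and Spaca3 at 50.8 and 22.7, a ratio of 1.13. Izumo1, at 76.5 FPKM in pellet1 against 38.1 in supernatant, just missed 2-fold at 0.99 and reached it with a pseudocount of 0.1 (1.00). Dpy19l2 was at 40.9 FPKM in pellet1 against 80.7 in supernatant (-0.96), and Zpbp2 at 81.3 and 134 (-0.72). Thus 2 members were higher and 0 lower, where 17.7% of genes stood higher and 9.95% lower. Acrbp, at 309 FPKM in pellet1 against 341 in supernatant, differed little (-0.14).

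**Figure D3:**
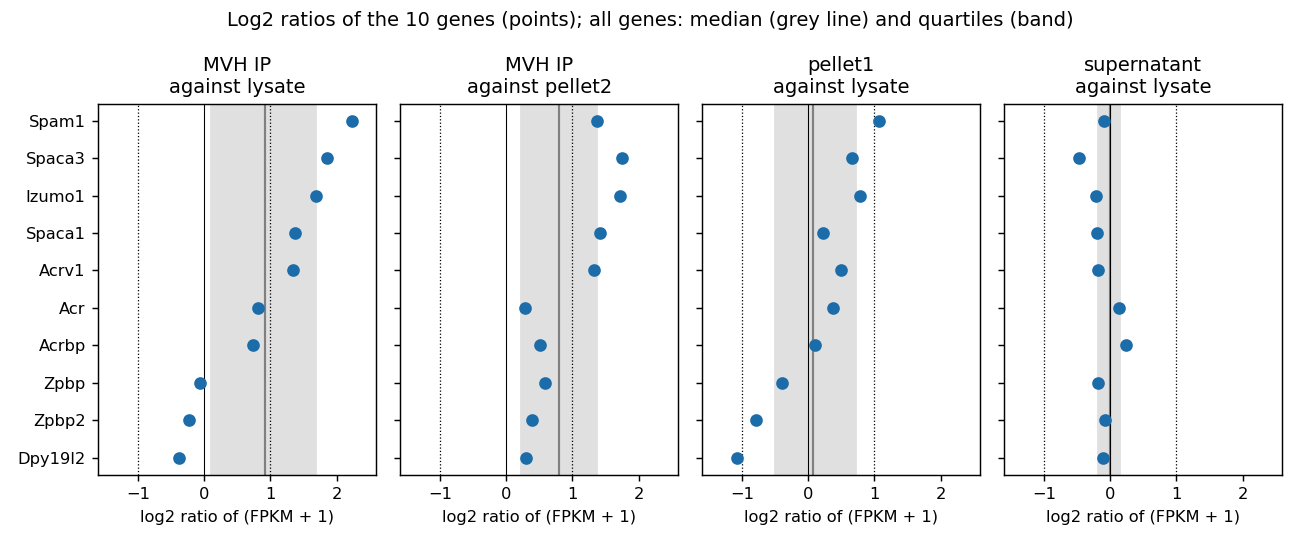
Log2 ratio of (FPKM + 1) of each gene (points) in 4 comparisons, with genes ordered by MVH IP against lysate, the grey line at the median of all genes, the band between their quartiles and dotted lines at 2-fold. Spam1, Spaca3 and Izumo1 lie at the upper end and Zpbp2 and Dpy19l2 at the lower end of both MVH IP and pellet1 against lysate.

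The median transcript length was 1197 bases for the 5 genes that were 2-fold higher in MVH IP and 1504 for the other members, with overlap, as a description of 10 genes. Taking the transcript with the highest score, lengths were 831 bases for Spaca3, 1101 for Acrv1, 1197 for Spaca1, 1493 for Izumo1 and 2100 for Spam1. The other members measured 1395 bases for Zpbp2, 1498 for Acrbp, 1504 for Acr, 3442 for Dpy19l2 and 4248 for Zpbp. The rank correlation of length with the log2 ratio was -0.42 over the 10 genes and -0.08 over 6004 genes with a known length, which share the same libraries. Within the 5 genes higher in MVH IP this correlation was 0.40, and within the other 5 members it was -0.10. For GC content it was 0.15 over the members and -0.02 over the 6004 genes.

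The sorted round spermatids show where the messengers stood in the cells that build the acrosome. These levels come from separate gene tables, each scaled by the authors on its own and each listing only genes from 5.00 FPKM up. All 10 genes were listed in round spermatids and lysate, 8 in MVH IP and 6 in hetMIWI round spermatids. Acrbp and Dpy19l2 were absent from the MVH IP table although the joint table has them at 479.7 and 66.6 FPKM. In all, 27.2% of the 3132 genes at 50 FPKM or more in the joint MVH IP values were absent there, so absence is not a low level.

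In round spermatids Acrbp was at 228 FPKM, against 112 in lysate, a log2 ratio of 1.02 and the only 2-fold difference among the 10 genes, where 22.6% of 4105 genes stood higher and 3.61% lower. The Acrbp row spans 4267 bases in the round spermatid table and 13339 in the lysate table, so this ratio may compare different gene models, and its part in the call was not tested. Acr was at 111 FPKM in round spermatids against 62.1 in lysate (0.82), and Spam1 at 23.5 and 12.6 (0.85). Zpbp2 was at 83.3 FPKM in round spermatids against 54.3 in lysate (0.61), and Spaca1 at 126 and 99.2 (0.34). The other five genes were at nearly equal levels. Acrv1 was at 81.5 FPKM in round spermatids against 87.9 in lysate, Dpy19l2 at 35.4 and 35.9, and Zpbp at 24.3 and 25.1. Izumo1 was at 20.5 FPKM in round spermatids against 21.1 in lysate, and Spaca3 at 12.1 and 12.4. The median gene had a log2 ratio of 0.31, and 5 members lay above it. The joint table gives the members' lysate levels as 2.01 to 3.50 times those of the separate lysate table. With the joint lysate values, the ratio of Acrbp was -0.33 and 0 members were higher and 5 lower in round spermatids by 2-fold, where 8.22% of 4889 genes stood higher and 36.6% lower, so these directions rest on the scaling.

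In MVH IP against round spermatids, Spaca3, Izumo1, Spam1, Acrv1 and Spaca1 were the ones past 2-fold, of 8 listed, with none lower. The MVH IP libraries are those of the joint table, so this comparison is not independent of the ones above. Spaca3 was at 111 FPKM in MVH IP against 12.1 in round spermatids (log2 ratio 3.09), Izumo1 at 158 and 20.5 (2.88), Spam1 at 150.2 and 23.5 (2.62), Acrv1 at 456 and 81.5 (2.47) and Spaca1 at 520.1 and 126 (2.04). Acr was at 209 FPKM in MVH IP against 111 in round spermatids (0.91), Zpbp at 45.2 and 24.3 (0.87) and Zpbp2 at 145 and 83.3 (0.79). Of the 3855 shared genes 75.4% were higher and 0.545% lower, and the median gene had a ratio of 1.85. Relative to that median, Spaca3 (1.24) and Izumo1 (1.03) were higher by 2-fold and Zpbp2 was lower (-1.07), where 20.3% of genes were higher and 21.5% were lower. With the MVH IP values of the joint table, 7 of the 8 were higher and 0 lower, where 59.2% of 4867 genes stood higher and 5.22% lower, and the added calls were Acr (1.31) and Zpbp (1.07).

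In hetMIWI round spermatids against round spermatids, 2 of the 6 members listed in both were higher and 0 lower, where 12.7% of 2536 genes stood higher and 10.5% lower. Spam1 was at 54.1 FPKM in hetMIWI round spermatids against 23.5 in round spermatids (log2 ratio 1.17), and Spaca1 at 277 and 126 (1.13). Zpbp was at 46.9 FPKM in hetMIWI round spermatids against 24.3 in round spermatids (0.92), Acrv1 at 145 and 81.5 (0.82) and Acr at 194 and 111 (0.80). Acrbp was the only one of the 6 on the other side, at 197 FPKM in hetMIWI round spermatids against 228 in round spermatids (-0.21), again over rows of 13339 and 4267 bases. The median gene had a ratio of 0.43, and relative to it no member reached 2-fold, where 3.59% of genes were higher and 18.3% were lower. The genotype and the size selection of 1 of the 2 round spermatid libraries cannot be told apart in these values.

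**Figure D4:**
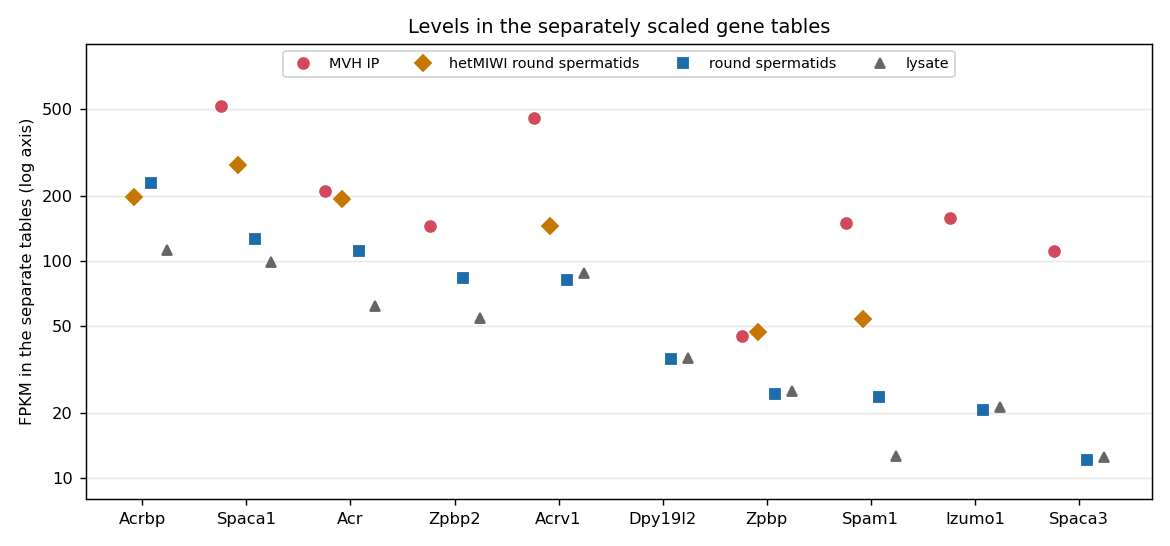
FPKM (log axis) of each gene in the separately scaled tables of MVH IP, hetMIWI round spermatids, round spermatids and lysate, with genes ordered by their round spermatid level and no point where a table does not list the gene. Spaca3, Izumo1, Spam1 and Acrv1 show the widest gap between MVH IP and round spermatids.

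Among 6677 other genes with a mean of at least 10 FPKM, the profile over the 5 joint conditions most like that of Acr belonged to Myst3, followed by Vapa, Phf3, Hif1an and Chid1. Likeness was the Euclidean distance of log2(FPKM + 1) values after each gene's own mean was taken off, and these 5 lay at 0.04 to 0.12. Acrbp was the nearest member, at place 285 with a distance of 0.36, and Spaca3 and Dpy19l2 the farthest, at places 4490 and 4491, both with 1.30.

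Other genes of the acrosome and of sperm and egg interaction differed among themselves too. Of 14 measured acrosomal protein genes outside the members (16 listed), 7 were higher in MVH IP than in lysate and 1 was lower, with a median of 1.04, close to genes at large (47.3% and 7.53%, median 0.92). The 4 lysozyme-like genes of this list, relatives of Spaca3, were all among the higher ones: Lyzl1 at 477 FPKM in MVH IP against 133 in lysate, Lyzl6 at 248 and 71.1, Lyzl4 at 119 and 35.3, and Spaca5 at 74.9 and 20.1. Hyal5, the hyaluronidase related to Spam1, was at 119.9 FPKM in MVH IP against 44.7 in lysate (log2 ratio 1.40). Spaca4, a surface protein of the acrosomal membrane, was at 185 FPKM in MVH IP against 45.6 in pellet2 (2.00). Cd46, a complement regulator on the acrosomal membrane, had the largest ratio of this list between MVH IP and lysate, at 279 FPKM in MVH IP against 33.7 in lysate (3.01). Crisp2, a cysteine-rich protein of the acrosome and tail, was the lower one at 649 FPKM in MVH IP against 1606 in lysate (-1.31).

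Of 7 measured egg fusion genes outside the members, 4 were higher and 1 lower in MVH IP than in lysate, shares again near those of all genes (47.3% and 7.53%). Tmem81 was at 246 FPKM in MVH IP against 19.2 in lysate (3.61), and it was already at 141 FPKM in pellet1. Izumo4, a relative of Izumo1, was at 13.3 FPKM in MVH IP against 45.5 in lysate (-1.70). The other listed relatives were above 0, Izumo3 at 204 FPKM in MVH IP against 92.8 in lysate (1.13) and Izumo2 at 119 and 86.3 (0.46). Tmem95, a sperm membrane protein needed for fusion, had 40.6 FPKM in pellet1 and 21.1 in MVH IP, against 6.46 in lysate.

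Genes listed around ADAM3, a sperm surface protein for zona binding and passage through the oviduct, had medians below those of all genes in MVH IP and pellet1 against lysate. The list holds Adam3 and related ADAM genes beside chaperones and other genes named for ADAM3 placement. Of 14 that passed the filter, 4 were higher and 3 lower in MVH IP than in lysate, with a median of 0.28 beside 0.92 for all genes, of which 47.3% were higher and 7.53% lower. In pellet1 against lysate, 0 of the 14 were higher and 6 lower, beside 16.8% and 9.41% of all genes, and the median was -0.58 beside 0.07. Adam3 itself was at 157 FPKM in MVH IP against 415 in lysate (-1.40), Adam5 at 144 and 505 (-1.81) and Clgn, the chaperone calmegin, at 234 and 481 (-1.03). Ly6k, a surface protein required for ADAM3 to mature, went the other way at 142 FPKM in MVH IP against 21.3 in lysate (2.68). It was lower in pellet1, at 7.56 FPKM, than in lysate, as was Tex101, another surface protein of this list, at 29.4 FPKM in pellet1 against 91.8 in lysate (-1.61).

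Of 17 genes of acrosome assembly that passed the filter, 5 were higher and 2 lower in MVH IP than in lysate, with a median of -0.07, beside 47.3% and 7.53% of all genes and their median of 0.92. Pick1, which acts in traffic from the Golgi to the acrosome, was at 225 FPKM in MVH IP against 37.7 in lysate (2.55) and already at 132 FPKM in pellet1. In pellet2, Stx12 was at 4.98 FPKM against 15.1 in lysate (-1.43) and Gba2 at 7.15 against 19.2 (-1.31). Spink2, an acrosomal inhibitor of serine proteases in the list of acrosomal proteins, had the lowest ratio of the genes tested from these lists in pellet2 against lysate, at 97.6 FPKM in pellet2 against 288 in lysate (-1.55). Of the 2 egg activation genes, Wbp2nl was higher, at 116 FPKM in MVH IP against 26.3 in lysate (2.10), and Plcz1, the sperm phospholipase, was at 245 and 201 (0.29).

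**Figure D5:**
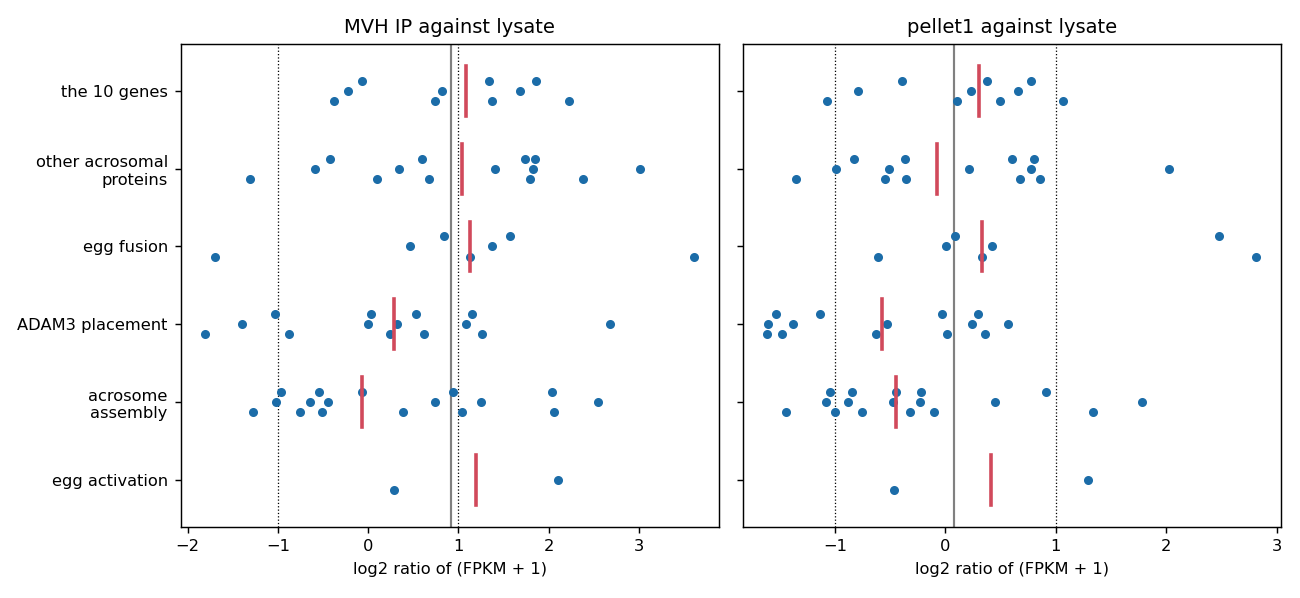
Log2 ratio of (FPKM + 1) of single genes (points) in the 10 genes and 5 further lists, for MVH IP and for pellet1 against lysate, with red bars at list medians, the grey line at the median of all genes and dotted lines at 2-fold. The list on ADAM3 placement has a median of 0.28 in MVH IP and -0.58 in pellet1 against lysate.

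Markers of other testis cells were read in the same values, and their counts stand beside the 47.3% of all genes higher and 7.53% lower in MVH IP than in lysate. All 10 round spermatid markers in the joint table were above 0 in every condition, with a summed level of 36788 FPKM in MVH IP, 31866 in pellet2 and 43769 in lysate. Of these 10, 2 were 2-fold higher in MVH IP than in lysate, a smaller share than of all genes. Sertoli cell markers summed to 400.4 FPKM in MVH IP, 34.0 in pellet2 and 85.1 in lysate, with 10 of 13 tested higher and 2 lower in MVH IP, and Amh, Inha, Rhox8 and Fshr at 0 there. Leydig cell markers summed to 313 FPKM in MVH IP, 209.9 in pellet2 and 376 in lysate, with 1 of 9 higher and 2 lower and Hsd3b6 at 0 in MVH IP. Spermatogonial markers summed to 101 FPKM in MVH IP and 40.1 in lysate, with 5 of 7 higher and Gfra1 and Nanos3 at 0 in MVH IP. The Sertoli markers Sox9, Inhbb and Dhh and the spermatogonial Dmrt1, all called higher, were under 1 FPKM in lysate. They passed the filter on the mean only through MVH IP, and Inha and Rhox8, called lower, only through lysate. The counts of these lists thus rest in part on the filter. Spermatocyte markers summed to 558 FPKM in MVH IP and 378 in lysate, with 1 of 10 higher, also a smaller share, and 0 lower, and macrophage markers to 38.1 and 20.9, with 2 of 6 higher and 2 lower. The part of these shifts in the members' values was not tested. The separate round spermatid table lists 10 of 11 round spermatid markers, 1 of 16 Sertoli markers and 0 of the Leydig, macrophage and spermatogonial markers, but 6 of the 10 spermatocyte markers. The separate lysate table lists 10 round spermatid, 3 Sertoli, 7 Leydig, 0 macrophage, 1 spermatogonial and 8 spermatocyte markers. Both tables start at 5.00 FPKM, so a marker absent from the sorted cells need not be depleted in them.

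Promoters are shown for 4 of the 5 genes that stood together in MVH IP, those whose 250 bases before the transcription start hold the core of the cAMP response element (TGACG on either strand) or GTGTGT. CREM, the activator of many spermatid genes, binds cAMP response elements, and in mouse the protein TDP-43 binds GTGTGT repeats of the Acrv1 promoter. RefSeq promoters (GRCm38.p6) were at hand for 9 of the 10 genes, all but Acr. TGACG was present in 5 of these 9 (Acrbp, Spaca1, Spaca3, Zpbp2 and Izumo1), against 19.8% of 27025 genes. The complete element TGACGTCA, which holds TGACG on both strands, was present in Izumo1, against 1.77% of genes. GTGTGT was present in Acrv1, 3 times, against 16.8% of genes, and TATAAA in none of the 9, against 14.3%. In all, 9 motifs were searched on both strands, some of which overlap in their letters. Of the others, TGACGT was present in Acrbp and Izumo1, against 7.29% of genes, CCAAT in Zpbp and Izumo1, against 37.5%, and CATGTG in Acrv1, Spaca1 and Spam1, against 13.8%. CACGTG was present in Dpy19l2, against 6.86% of genes, and ATTGT in Acrv1, Spam1 and Dpy19l2, against 30.9%. The motifs to mark were picked after these matches were seen, and a match is a description of letters. Each sequence gives the 150 bases before the start, 5′ to 3′ on the gene's strand, with every match of TGACG or GTGTGT, on either strand, in capitals. They lie at chr9:36693070-36693219 for Acrv1, chr4:34050066-34050215 (minus strand) for Spaca1, chr11:80858213-80858362 for Spaca3 and chr7:45621661-45621810 for Izumo1, the plus strand except where given.
Acrv1 promoter: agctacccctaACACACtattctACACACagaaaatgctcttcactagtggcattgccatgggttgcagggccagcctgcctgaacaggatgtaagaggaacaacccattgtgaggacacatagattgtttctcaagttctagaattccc
Spaca1 promoter: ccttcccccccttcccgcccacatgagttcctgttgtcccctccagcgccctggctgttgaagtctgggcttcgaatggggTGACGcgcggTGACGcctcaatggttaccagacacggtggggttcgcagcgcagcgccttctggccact
Spaca3 promoter: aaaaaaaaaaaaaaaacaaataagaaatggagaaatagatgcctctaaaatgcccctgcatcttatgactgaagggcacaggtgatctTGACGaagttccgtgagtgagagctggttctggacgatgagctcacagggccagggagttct
Izumo1 promoter: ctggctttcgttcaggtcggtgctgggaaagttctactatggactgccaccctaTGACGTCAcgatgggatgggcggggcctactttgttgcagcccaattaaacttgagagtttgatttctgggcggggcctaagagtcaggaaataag
The matches begin 69 and 59 bases before the start in Spaca1, 62 in Spaca3 and 96 and 93 in Izumo1. Counted from another annotated start, the matches begin 67 and 57 bases before it in Spaca1 and 88 in Spaca3. In Acrv1 they begin 184, 139 and 127 bases before the start, the first of them outside the stretch shown. Zpbp2 and Acrbp, with TGACG at 147 and 18 bases, were not among the genes 2-fold higher in MVH IP, so the core was found on both sides of that line.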

How the data were processed

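Per the labels' protocols, cDNA was made with not-so-random primers and cut from a gel at 350 to 500 bp. TopHat, Cuffdiff and the build mm9 are named, per the submitters' processing notes, and their versions, the depth and the scaling of conditions were not given in the sources used here. As deposited by the authors, values are FPKM, per the file headers, in 1 joint table of 5 conditions (21905 genes with a symbol of 27024 features) and in separate tables. Cuffdiff's q-value and p-value columns were taken as the authors deposited them. The deposited transcript values of MVH IP have no named unit and are called a score. Of the columns with values per library, 1 (small RNA) was not used.

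The 10 genes were matched by symbol and all passed the filter. Log2 ratios of (FPKM + 1) were taken for genes with a mean of at least 1 FPKM (for separate tables, genes listed in both) and called at 2-fold; they understate the change of low genes. Where a feature had differing values across pairs (26 features, 0 members), the highest was used. No statistical test of the conditions was run, since limma would need 1 value per library. The script that makes the 2-fold calls was tested on simulated data with known changes. The 10 genes and all lists were chosen with earlier results of these data known. From the further lists, genes named are the 3 largest ratios in each direction per comparison. Relatives of Spaca3, Spam1 and Izumo1 and others picked after their values were seen are named beside them. All members are named. Alternatives were another pseudocount, filters, centring on the gene median and the other tables. Coordinates of genes are mm9, counted from 1; those of sequences are GRCm38, and the 2 builds were not mixed. Tools were Python 3.11.15, pandas 2.3.3, numpy 2.4.6 and scipy 1.17.1.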

Additional observations from a re-analysis of the deposited data

How the results depend on the processing

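No paired analysis was possible because each group has 1 pooled value, and for the same reason no replicate could be left out. Centring on the median of all genes changed most calls: members higher went to 1 and lower to 2 for MVH IP against lysate, to 2 and 2 for MVH IP against supernatant, higher to 0 for MVH IP against pellet2 and for pellet1 against lysate, and lower to 1 for pellet1 against supernatant. On the centred scale, 19.4% of all genes were higher and 21.6% lower for MVH IP against supernatant. For pellet1 against lysate 15.2% of genes were higher, and for pellet1 against supernatant 11.7% were lower. Centring the separate tables left 0 members higher for round spermatids against lysate, beside 15.2% of the shared genes. It also left 0 higher for hetMIWI round spermatids against round spermatids, and 2 higher and 1 lower for MVH IP against round spermatids. With the lysate of the joint table, 0 members were higher and 5 lower in round spermatids, and Acrbp reversed to -0.33; the 2 lysate tables differ in scale, as their ratio shows. A pseudocount of 0.1 changed the joint counts of members only for pellet1 against supernatant, from 2 to 3 higher. Of the 12866 genes tested in that comparison, those higher went from 2283 to 2837. The filters drop genes and change no ratio. Every member was at 22.7 FPKM or more in the joint table, so dropping the filter or raising it to a mean of at least 5 FPKM could not alter a count. A mean of at least 30 FPKM took Spaca3 out of supernatant against lysate, where no member was called. Of 234 recomputed ratios of single members, 180 kept their direction and their side of 2-fold. Of these 180, 103 came from the pseudocount of 0.1, which changes levels this high little. With centring on the median of all genes, 51 were kept, 11 changed direction, 13 fell short of 2-fold and 5 newly reached it. Depth is unknown, so no counting error can be given, and 1 value per condition limits every difference.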
